A study of Homo sapiens with 4 samples.

Results

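The 10 genes described here are 2 transcriptional coactivators of the Hippo pathway, YAP1 and WWTR1 (also called TAZ), the 4 TEAD transcription factors they bind, and 4 widely used target genes of that complex, CTGF, CYR61, ANKRD1 and AMOTL2. They were taken by gene name, with CTGF and CYR61 under the symbols the deposited table uses (now CCN2 and CCN1), and all 10 were found among 55764 listed gene names. The cells are TE5, a human oesophageal squamous cell carcinoma line, sequenced as bulk RNA. In 2 libraries the cells carried a lentiviral vector expressing human ETS1, a transcription factor, from a CMV promoter, and in 2 control libraries they carried the vector backbone. Both groups were grown in the same serum-containing medium and were sequenced after selection for stable expression, according to the labels and the series text. Whether the lines are single clones or pools, and whether the 2 libraries of a group are separate cultures, is not given in the sources used here, so p-values measure the spread between these libraries, which may be technical. The question put to these genes was whether their RNA levels differ between ETS1-overexpressing and control cells.

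In the Hippo pathway a kinase cascade phosphorylates YAP1 and WWTR1, which keeps them out of the nucleus and marks them for breakdown. When the cascade is off, both enter the nucleus and bind TEAD factors, which sit on DNA and cannot activate transcription well alone. The complex then activates genes of growth, matrix and cytoskeleton, and the complex is known for its activity in squamous carcinomas. RNA levels do not report phosphorylation or location of YAP1 and WWTR1.

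Libraries had between 40356718 and 57269971 reads in the genes of the authors' comparison table, and the ETS1 libraries were the deeper pair. These reads were recovered from the authors' mean normalized counts and the FPKM. ETS1 itself had 0.491 and 0.509 FPKM in the controls against 1.84 and 1.87 FPKM with ETS1, from 142 and 161 against 756 and 756 recovered reads, a ratio of 3.71 in FPKM. ETS1 reached the filter used below only through its level in the ETS1 libraries, so no test is read from it. Of the 6 squamous markers checked (KRT5, KRT14, TP63, KRT6A, KRT13 and DSG3), 0 reached 1 FPKM in a library, and their summed FPKM ran from 0.0935 to 0.101, so the squamous label was not borne out by them. Of the 5 simple epithelial markers, 4 reached 1 FPKM in some library, and their summed level was 16.1 to 16.3 FPKM in the controls and 16.8 to 16.9 FPKM with ETS1. The list did not move as one. The keratin KRT8 rose, from 3.91 and 3.87 FPKM in the controls to 6.48 and 6.59 FPKM with ETS1 (log2 change 0.62, limma adjusted p 0.000591). Its partner KRT18 fell, from 10.2 and 10.5 to 8.35 and 8.29 FPKM (-0.29, limma adjusted p 0.00223). EPCAM did not pass (1.37 and 1.36 against 0.915 and 1.12 FPKM), while CDH1 (0.571 and 0.567 against 1.08 and 0.916 FPKM) and KRT19 (at most 0.0224 FPKM) lay below the filter and so had no test. What these markers contribute to the results was not tested. The defining leukocyte marker PTPRC stayed at or below 0.0117 FPKM and the endothelial markers CDH5 and VWF at or below 0.0446 FPKM. In bulk RNA, fewer cells expressing a gene and less RNA per cell cannot be told apart.

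TEAD factors recognise DNA through a short core, here searched as GGAATG on either strand, and the promoters are shown because the target genes are defined by this binding. The windows are the 250 bases before each RefSeq start on GRCh38.p14, read 5′ to 3′ in the direction of the gene, with base -1 next to the start. The promoter table used here holds windows for 7 of the 10 genes, which leaves out CYR61, TEAD1 and TEAD4. The whole CTGF window (chr6:131951373-131951622, minus strand) holds 3 matches, at bases -169, -104 and -95, printed in capitals.
CTGF: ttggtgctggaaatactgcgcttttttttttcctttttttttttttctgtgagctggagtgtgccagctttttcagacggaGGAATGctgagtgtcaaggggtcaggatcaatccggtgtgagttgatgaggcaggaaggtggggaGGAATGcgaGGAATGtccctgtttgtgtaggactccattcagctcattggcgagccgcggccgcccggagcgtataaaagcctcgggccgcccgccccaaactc

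The other matches among these genes are shown as stretches of 30 bases, with the core again in capitals. ANKRD1 has 2, starting at bases -220 (chr10:90921290-90921319, minus strand) and -128 (chr10:90921198-90921227, minus strand). YAP1 has 1, at base -162 (chr11:102110273-102110302, plus strand). AMOTL2 has 1, at base -69 of its second RefSeq start (chr3:134374499-134374528, minus strand), and it lies on the other strand, so its capitals read CATTCC.
ANKRD1, first match: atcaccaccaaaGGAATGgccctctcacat
ANKRD1, second match: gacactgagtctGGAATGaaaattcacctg
YAP1: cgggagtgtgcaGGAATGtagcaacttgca
AMOTL2: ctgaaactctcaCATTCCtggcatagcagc

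Of 35116 RefSeq windows of this length, 11.9% hold at least 1 GGAATG on either strand, 0.940% at least 2 and 0.0826% at least 3. The windows of WWTR1, TEAD2 and TEAD3 hold none. The ETS core CCGGAA, present in 14.5% of windows, was found once each in TEAD2 and TEAD3, and the AP-1 letters TGAGTCA, present in 4.20% of windows, in none of the members' windows. The letters GGAA are common to the TEAD and ETS cores, so the GGAATG matches also hold the shortest ETS core. A letter match is a description and not a measured binding site. For ANKRD1, GENCODE 29 places the first base of the gene at 90921276, inside the window, so distances depend on the annotation used.

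**Figure D1:**
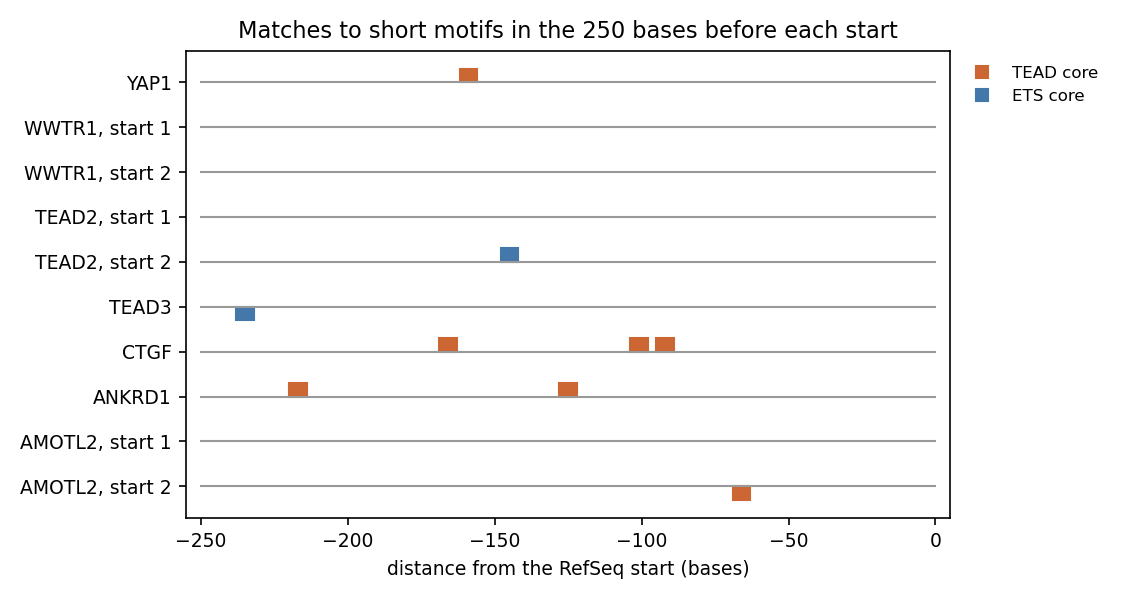
Matches in the 250 bases before each RefSeq start, with distance from the start in bases on the x axis and one line per start; boxes above a line read in the direction of the gene and boxes below it on the other strand. CTGF has 3 TEAD core matches and ANKRD1 has 2, YAP1 and the second AMOTL2 start have 1 each, and TEAD2 and TEAD3 have 1 ETS core match each.

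Tested genes were matched to windows by gene name, so genes with no window under their name, CTGF among them, were left out here. Among the matched genes, those with 2 or more GGAATG in a window were called higher in 26 of 75 cases (34.7%). For genes whose windows hold none it was 2685 of 7785 (34.5%). The medians of the log2 changes were 0.0093 and 0.038. Among the matched genes the share called higher was thus nearly the same with several matches and with none.

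All 10 members passed the filter of a mean of 1 FPKM, and each also had at least 1 FPKM in both groups. FPKM is fragments per kilobase of gene, scaled to the size of the library, so levels can be set side by side between genes. With limma at an adjusted p under 0.05, ETS1 cells had 7 of the 10 called higher and 1 called lower. Of all 14306 tested genes, 59.1% were called in either direction, 30.7% higher and 28.4% lower, so calls as such were common in this comparison. The members' median log2 change was 0.35, and that of all tested genes was 0.016. Both ETS1 libraries were above both controls for 8 members and below them for 1, which is TEAD4, where 43.1% of tested genes were higher and 38.9% lower without overlap. An exact two-sided permutation test over 2 against 2 libraries cannot go below 0.333, and it gave 0.333 for 9 members and 0.667 for AMOTL2, so the calls rest on the variance shared across genes in limma.

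In the controls the levels ran from CYR61 (18.2 FPKM) through TEAD4 (11.8), YAP1 (7.15), TEAD1 (4.54), TEAD3 (4.44), TEAD2 (4.22), ANKRD1 (2.59), AMOTL2 (2.55) and WWTR1 (1.86) to CTGF (1.27). The libraries of TEAD1 and TEAD3 overlapped in this order, as did those of ANKRD1 and AMOTL2. In the ETS1 libraries ANKRD1 stood at 8.89 FPKM, next to YAP1 at 9.15 FPKM, and their libraries overlapped. CTGF (2.84 FPKM), AMOTL2 (2.70 FPKM) and WWTR1 (2.64 FPKM) overlapped at the low end.

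**Figure D2:**
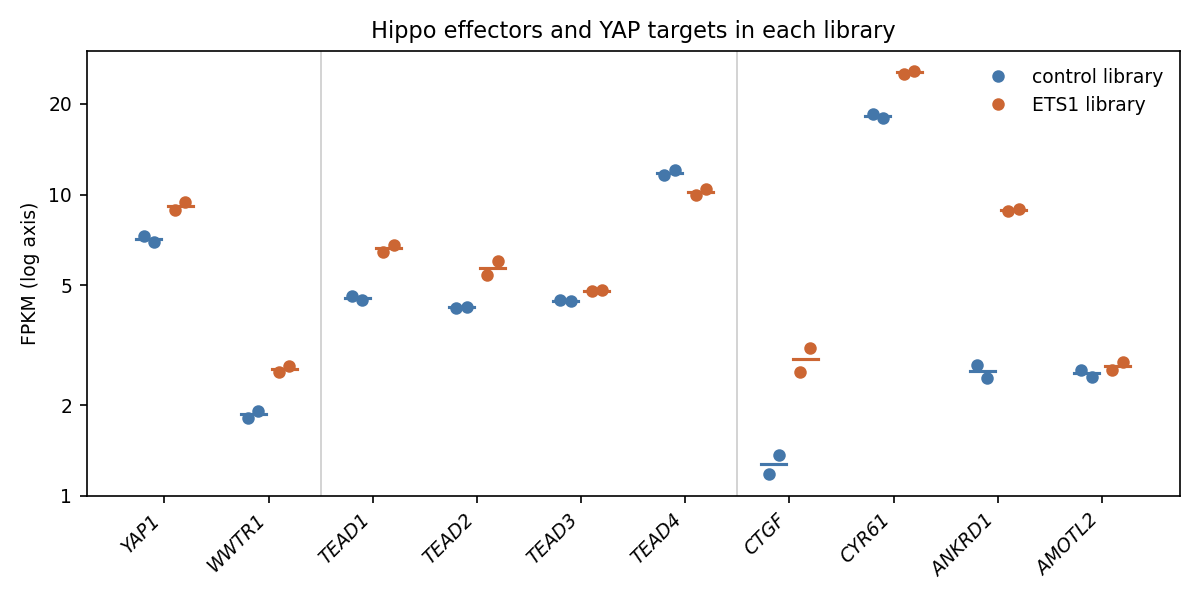
FPKM of each gene on a log axis, with 1 point per library and a line at the mean of each group of 2; vertical lines separate coactivators, TEAD factors and targets. The ETS1 points lie above the control points for 8 genes, below them for TEAD4, and overlap them for AMOTL2.

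Both coactivators rose. YAP1 (chromosome 11, 102110461 to 102233423, plus strand, GENCODE 29 on GRCh38) had 7.31 and 6.98 FPKM in the controls against 8.86 and 9.44 FPKM with ETS1, from between 1862 and 3368 reads. Both ETS1 libraries were above both controls, by 1.28 times on average. The log2(FPKM + 1) difference was 0.32 (SE 0.045, limma adjusted p 0.0041). WWTR1 (chromosome 3, 149517235 to 149736714, minus strand), the paralogue of YAP1, had 1.82 and 1.91 FPKM in the controls against 2.58 and 2.69 FPKM with ETS1. The groups did not overlap, and the change was 0.34 (SE 0.051, limma adjusted p 0.0046). After removal of a trend of the changes on gene length and GC content, WWTR1 kept its call with a change of 0.22, and 0.20 with the local chromosomal median removed as well. YAP1 RNA stayed the more abundant of the pair, at 3.84 ± 0.256 times WWTR1 in the controls and 3.47 ± 0.0553 times in the ETS1 libraries (SD, n = 2 each). Their summed level went from 9.01 ± 0.169 to 11.8 ± 0.489 FPKM (SD, n = 2 each).

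The TEAD factors, which give the complex its DNA binding, did not move as one: TEAD1 and TEAD2 rose, TEAD4 fell and TEAD3 did not pass. TEAD1 (chromosome 11, 12674591 to 12944483, plus strand) had 4.62 and 4.45 FPKM in the controls against 6.46 and 6.80 FPKM with ETS1. That is a ratio of 1.46 without overlap and a log2 change of 0.46 (SE 0.043, limma adjusted p 0.00134). Its call held with the length and GC trend and the local median removed, at a change of 0.27. TEAD2 (chromosome 19, 49340595 to 49362457, minus strand) had 4.20 and 4.25 FPKM in the controls against 5.41 and 6.00 FPKM with ETS1. The ETS1 libraries differed more between themselves than the controls did, and the change was 0.36 (SE 0.054, limma adjusted p 0.00482).

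TEAD4 (chromosome 12, 2959330 to 3040673, plus strand), the most abundant of the 4 in each library, had 11.6 and 12.1 FPKM in the controls against 10.0 and 10.5 FPKM with ETS1. The ratio was 0.864, with both ETS1 libraries below both controls. The log2 change was -0.19 (SE 0.040, limma adjusted p 0.0125), and it did not pass without ETS1 replicate 1 (-0.16, adjusted p 0.0722). The call was also lost with the length and GC trend removed (-0.051, adjusted p 0.304, where the lowest of any alternative was 0.00161), and with the local median removed alone the change was -0.32. With the trend and the local median both removed TEAD4 was called lower again, at -0.27 with an adjusted p of 0.00369. TEAD4, TEAD3 and TEAD2 all have short, GC-rich transcripts (inferred lengths of 2263, 3039 and 2972 bases, 60.4%, 59.8% and 58.4% GC), and TEAD2 was called higher with and without the trend (0.47 with it removed), whereas TEAD1 is long and GC-poor (10826 bases, 41.3% GC).

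TEAD3 (chromosome 6, 35473597 to 35497076, minus strand) had 4.45 and 4.42 FPKM in the controls against 4.77 and 4.81 FPKM with ETS1. The groups did not overlap, but the log2 change of 0.091 (95% interval -0.0041 to 0.19) had a limma adjusted p of 0.0869. With the length and GC trend removed it passed, at 0.20 with an adjusted p of 0.00629, and its adjusted p ran up to 0.533 over all alternatives.

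The make-up of the TEAD pool differed between the groups without overlap for 3 of the 4 paralogues. TEAD4 made up 46.6% and 48.0% of the summed TEAD FPKM in the controls and 37.5% and 37.3% in the ETS1 libraries, a difference of -9.88 percentage points. TEAD1 went from 18.6% and 17.6% to 24.2% in both ETS1 libraries. TEAD2 went from 16.9% and 16.8% to 20.3% and 21.4%. TEAD3 stayed between 17.1% and 17.9%, with overlapping groups. The summed TEAD level was 25.04 ± 0.266 FPKM in the controls against 27.4 ± 1.00 FPKM with ETS1 (SD, n = 2 each). The exact permutation test of the shares gave a two-sided p of 0.333 for TEAD1, TEAD2 and TEAD4, the smallest it can give, and 0.667 for TEAD3.

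**Figure D3:**
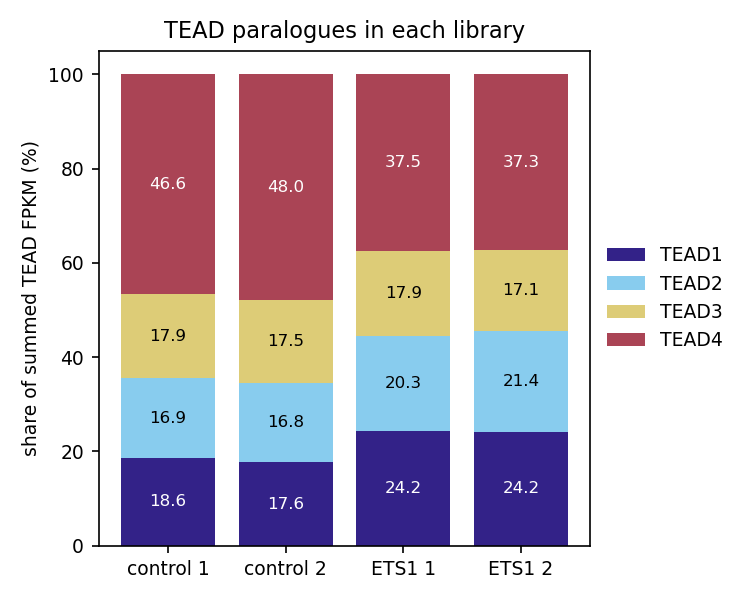
Share of each TEAD paralogue in the summed TEAD FPKM of each library, in percent, with 1 bar per library. The TEAD4 share is 46.6% and 48.0% in the controls and 37.5% and 37.3% in the ETS1 libraries, and the TEAD1 and TEAD2 shares are larger in the ETS1 libraries.

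Of the 4 target genes, 3 rose and AMOTL2 did not pass. ANKRD1 (chromosome 10, 90912096 to 90921276, minus strand), which encodes an ankyrin-repeat protein of muscle and stressed cells, had 2.72 and 2.46 FPKM in the controls against 8.79 and 8.99 FPKM with ETS1. The reads behind these values were 217 and 215 in the controls and 996 and 1005 in the ETS1 libraries. The ratio was 3.43, and the 2 ETS1 libraries were close to each other and far above both controls. The log2(FPKM + 1) difference was 1.46 (SE 0.049, limma adjusted p 0.000417), the 29th highest among 14306 tested genes, of which 0.545% were called higher with a log2 change of at least 1. Over the alternatives the change ran from 1.29 to 1.78.

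CTGF (chromosome 6, 131948176 to 131951373, minus strand) encodes a secreted matrix-associated protein, and its promoter with 3 TEAD core matches is printed above. It had 1.18 and 1.36 FPKM in the controls against 2.58 and 3.10 FPKM with ETS1, from 112 and 141 against 346 and 410 reads. The groups did not overlap, though both pairs were more spread relative to their mean than those of CYR61. The ratio was 2.23 and the log2(FPKM + 1) change 0.75 (SE 0.088, limma adjusted p 0.00237). Fitted on recovered reads with voom, without a pseudocount of 1 FPKM, the change was 1.14. CYR61 (chromosome 1, 85580761 to 85583962, plus strand), a secreted protein of the same family and the most abundant member, had 18.5 and 18.0 FPKM in the controls against 25.1 and 25.8 FPKM with ETS1. Both ETS1 libraries were higher, by 1.40 times on average, with a log2 change of 0.46 (SE 0.031, limma adjusted p 0.000732).

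AMOTL2 (chromosome 3, 134355874 to 134375479, minus strand) encodes an angiomotin-like scaffold that binds YAP1 and holds it back. It had 2.62 and 2.49 FPKM in the controls against 2.61 and 2.79 FPKM with ETS1. The groups overlapped, and the log2 change of 0.058 (95% interval -0.079 to 0.19) had a limma adjusted p of 0.386. The target genes thus ranged from a 3.43-fold difference to one within the spread of the libraries, although both ANKRD1 and AMOTL2 have a GGAATG match before a start.

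The authors' deposited table calls 25.3% of its genes with an adjusted p higher and 25.9% lower, and it calls the same 7 members higher and TEAD4 lower. In the authors' deposited table the log2 fold changes were 1.74 for ANKRD1 (adjusted p 3.27e-39), 1.07 for CTGF (adjusted p 5.6e-08) and 0.45 for CYR61 (adjusted p 3.83e-12). The authors' deposited table also gives 0.51 for TEAD1, 0.45 for WWTR1, 0.38 for TEAD2 and 0.32 for YAP1, all with an adjusted p of at most 0.000672. TEAD4 has -0.22 there (adjusted p 0.0143), and TEAD3 and AMOTL2 do not pass in the authors' deposited table (adjusted p 0.533 and 0.69).

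Changes of neighbouring genes were set beside those of the members. The median log2 change of tested protein-coding genes within 5 Mb was 0.17 around ANKRD1 (39 genes), 0.14 around CYR61 (26 genes), 0.13 around TEAD4 (55 genes), 0.11 around TEAD1 (44 genes), 0.069 around CTGF (24 genes), 0.067 around WWTR1 (17 genes) and 0.043 around YAP1 (6 genes). It was 0.0089 around TEAD3 (129 genes) and -0.036 around TEAD2 (181 genes). Each of the 7 risen members exceeded its surroundings, with differences from 0.27 for YAP1 to 1.29 for ANKRD1. TEAD4 went against rising surroundings. Around AMOTL2 the median was 0.18 (34 genes), above the change of AMOTL2 itself, and with that median removed its change was -0.12 (adjusted p 0.0855, in a range up to 0.83 over all alternatives).

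**Figure D4:**
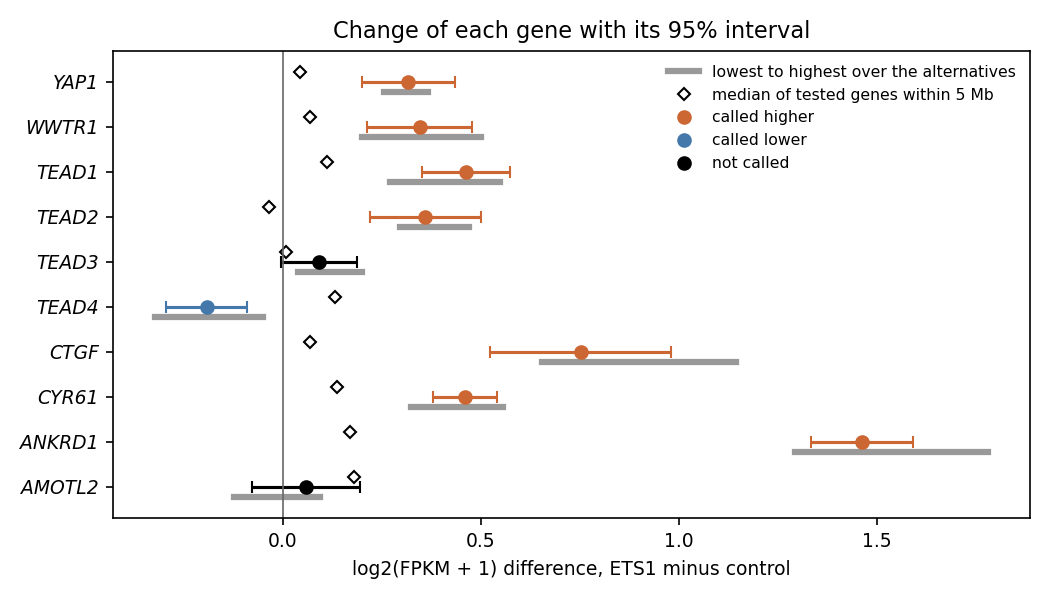
Difference in log2(FPKM + 1), ETS1 minus control, with limma's 95% interval for each gene; grey bars run from the lowest to the highest value over the alternatives and diamonds mark the median change of tested genes within 5 Mb. The 7 genes called higher lie right of their diamonds, with ANKRD1 at 1.46 and CTGF at 0.75, and TEAD4 lies left of 0 while its diamond lies right of it.

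The rest of the pathway was read from 6 lists of 47 genes in all, of which 34 were tested. Of these, 19 were called higher and 8 lower, with a median log2 change of 0.17, beside 30.7% higher and 28.4% lower among all tested genes and their median of 0.016. Of the 34, only DCHS1 reached the filter through its level in the ETS1 libraries alone, and over the other 33 genes the calls were 18 higher and 8 lower, with a median of 0.15. Without ETS1 replicate 2 the calls were 8 higher and 3 lower, without ETS1 replicate 1 they were 13 and 4, and without either control replicate 5 were lower. With the local median and the length and GC trend removed they were 12 higher and 7 lower. DCHS1 is 1 of the genes higher in each of these counts, which without it are 7, 12 and 11.

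LATS1 and LATS2 phosphorylate YAP1 and WWTR1 and so restrain them, and the other core kinases and adaptors act upstream of the LATS kinases or together with them. All 11 were tested, 8 were called higher and 1, the kinase TAOK2, lower, with a median of 0.21, beside the 30.7% higher and 28.4% lower among all tested genes. The count moved with each ETS1 library left out: it was 4 higher and 0 lower without ETS1 replicate 2, and 5 and 0 without ETS1 replicate 1. It was 5 higher and 1 lower with the local median removed (median 0.11), 4 and 1 with the length and GC trend removed (median 0.068), and 4 and 2 with both removed (median 0.012). LATS2, the kinase gene that is itself a YAP1 target, had 2.03 and 2.12 FPKM in the controls against 3.32 and 3.53 FPKM with ETS1, without overlap, a change of 0.53 (SE 0.051, limma adjusted p 0.00149). TAOK1 rose by 0.38, MAP4K4 by 0.36 and LATS1 by 0.34, with limma adjusted p-values of 0.00282, 0.00123 and 0.00319. These 3 kept their calls under every alternative run (for TAOK1 leaving out the filter of 5 FPKM, which it reached only through the ETS1 libraries), at changes down to 0.17, 0.18 and 0.15. MOB1A and TAOK3 did not pass.

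Among the upstream membrane regulators 6 of 9 were tested. Leaving out DCHS1, which is described without a test, 2 of 5 were called higher and 2 lower. Among all tested genes 30.7% were called higher and 28.4% lower. The higher count of the list was smaller without ETS1 replicate 1, ETS1 replicate 2 or control replicate 2. Its lower count was smaller without ETS1 replicate 2. The protocadherin DCHS1 had 0.352 and 0.420 FPKM in the controls against 1.63 and 1.61 FPKM with ETS1, a log2(FPKM + 1) difference of 0.92. On recovered reads the difference was 2.07. WWC2, of the KIBRA family, rose by 0.62 (limma adjusted p 0.00141). The polarity gene SCRIB fell by 0.22 (limma adjusted p 0.00485), but with the local median removed its change reversed to 0.11, and further removal of the length and GC trend left it short of the threshold (adjusted p 0.146, the highest it had). The protocadherin FAT1 rose by 0.21 (limma adjusted p 0.0171), a call kept under 8 of 15 alternatives, and its change was 0.0056 with the local median and the trend removed. NF2, which encodes merlin, was the other member called lower (-0.19), and it was named after its values were seen.

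Proteins that bind and hold back YAP1 went both ways. AMOT, the angiomotin gene related to AMOTL2, had 70.9 and 68.5 FPKM in the controls against 50.1 and 50.2 FPKM with ETS1. Both ETS1 libraries were well below both controls, a change of -0.47 (SE 0.029, limma adjusted p 0.000648) that passed under all 16 alternatives, between -0.75 and -0.31. The third angiomotin gene, AMOTL1, rose by 0.20 (limma adjusted p 0.0129), which did not pass without ETS1 replicate 2 (adjusted p 0.0859). PTPN14, a phosphatase that binds YAP1, rose by 0.27 (limma adjusted p 0.014), kept under 10 of 15 alternatives and reversed under 2, down to -0.10. Of the LIM-domain proteins that inhibit LATS kinases, AJUBA rose by 0.28 (limma adjusted p 0.00747) and LIMD1 fell by 0.17 (limma adjusted p 0.0252), the latter kept under 8 of 15 alternatives, while WTIP did not pass. Of the VGLL cofactors, which compete with YAP1 for TEAD factors, only VGLL4 reached the filter, and its change of 0.066 had a limma adjusted p of 0.324.

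Beyond the members, 18 genes of a YAP/TAZ target signature were listed, 11 of them tested. Of these, 7 were called higher and 3 lower, beside 30.7% higher and 28.4% lower among all tested genes. The median was 0.23, beside 0.016 for all tested genes. The counts were 2 higher and 1 lower without ETS1 replicate 2, 5 and 1 without ETS1 replicate 1, 6 and 1 without control replicate 1, and 4 and 1 without control replicate 2. With the local median removed they were even, 3 higher and 3 lower (median 0.075), and with both that median and the trend taken out 4 and 2. LATS2 and PTPN14 belong to it as well and are counted above too. The coagulation factor receptor gene F3 had 2.15 and 2.11 FPKM in the controls against 2.58 and 3.01 FPKM with ETS1, a change of 0.27 (limma adjusted p 0.0242) kept under 10 of 15 alternatives, and its change was 0.086 with the local median removed. FJX1, a secreted kinase-like protein, had 7.85 and 8.23 FPKM in the controls against 6.29 and 6.42 FPKM with ETS1, a change of -0.30 (limma adjusted p 0.0032) kept under all 16 alternatives, at a change of -0.13 in the smallest. The other genes called lower were DOCK5 (-0.18) and ARHGEF17 (-0.24), and FOXF2 did not pass; these 3 were named after their values were seen. The 7 signature genes under the filter, each with group means of at most 0.912 FPKM, were higher in both ETS1 libraries than in both controls, and they were not tested. Of the 5 genes of the other lists under the filter with a mean of at least 0.05 FPKM, 4 were higher in this sense and 1, CRB3, lower. VGLL1 had at most 0.0161 FPKM and is not counted. Among all 10914 genes under the filter with a mean of at least 0.05 FPKM, 30.2% were higher and 20.2% lower without overlap.

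**Figure D5:**
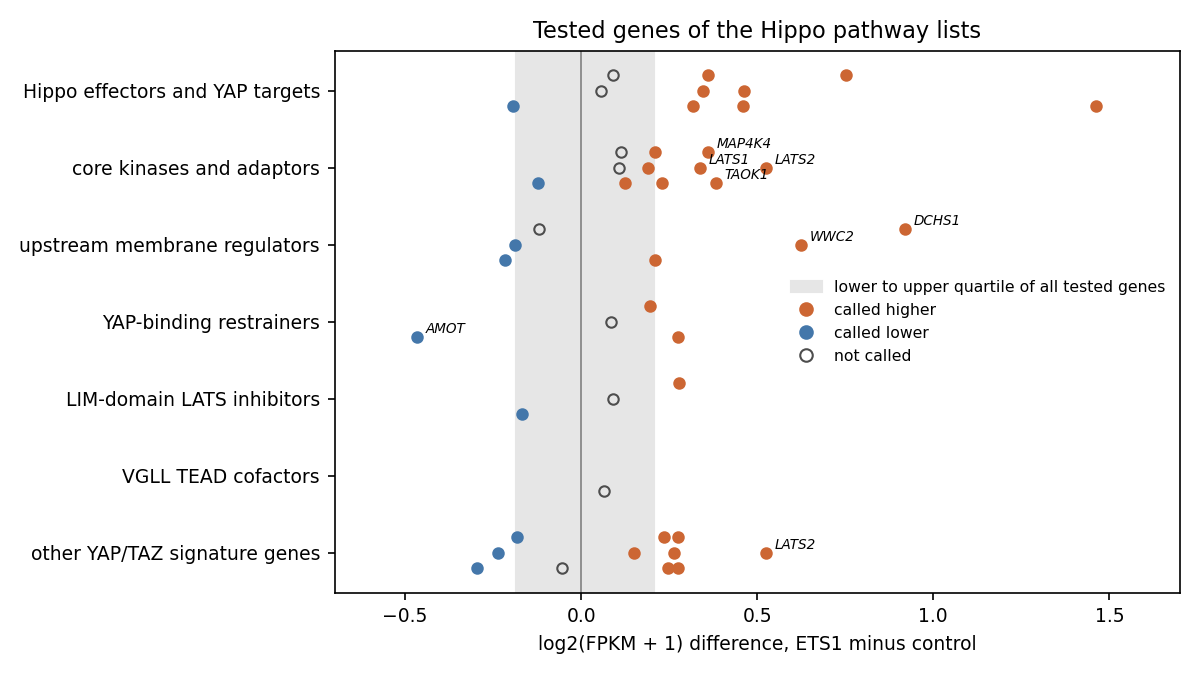
Log2(FPKM + 1) difference, ETS1 minus control, of each tested gene of the Hippo lists and of the 10 genes described here; the shaded band runs from the lower to the upper quartile of all tested genes, and vertical offsets within a row only separate points. Of the 34 tested list genes 19 are called higher (18 without DCHS1) and 8 lower, with DCHS1 at 0.92 and AMOT at -0.47 as the ends of the lists.

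The tested genes whose profile over the 4 libraries was nearest that of CTGF, by Euclidean distance of mean-centred log2(FPKM + 1), were MAP1LC3C (0.061), RP11-348P10.2 (0.062) and RP11-274B21.2 (0.074). MAP1LC3C and RP11-348P10.2 reached the filter only through their levels in the ETS1 libraries, so their likeness is in part set by the filter. Nearest CYR61 were EFCAB14 (0.0084), EIF4EBP2 (0.011) and RHBDD1 (0.013). With 4 libraries in 2 groups this likeness mostly states a like difference between the groups.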

How the data were processed

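The authors deposited FPKM for each gene name and library, and a comparison table that repeats the FPKM of the 16652 genes with a mean of at least 0.5 (0 cells differed). Per the file headers, that table adds a mean normalized count (a signal averaged over libraries), log2 fold changes with standard errors on a log2 scale, and p-values with adjusted p-values (missing for 969 genes). HISAT2, HTSeq and DESeq2 and the build GRCh38 (hg38) are named in the submitters' processing notes; versions, annotation and use of strand are not given in the sources used here.

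FPKM was taken as log2(FPKM + 1), genes with a mean of at least 1 FPKM over the 4 libraries were kept (14306, 25.7% of those listed), and limma 3.58.1 in R 4.3.3 was fitted with a group term and an intensity trend (2 residual and 2.84 prior degrees of freedom). Two-sided p-values were adjusted over all tested genes by Benjamini-Hochberg, with a threshold of 0.05. The pseudocount understates changes of low genes. Reads were recovered from the authors' mean normalized counts and the FPKM, by fitting library scales so that the values came out whole. Of the values in 16652 genes, 98.3% fell within 0.05 of a whole number. Positions, lengths and GC come from GENCODE 29 on GRCh38 by gene name, matched for 84.0% of tested genes, and promoters from RefSeq on GRCh38.p14.

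The members and lists were chosen with earlier results of these data known. Named genes are ETS1, the 10 members, at most the 4 called genes of each list with the largest change, and the 3 genes nearest CTGF and CYR61. TAOK2, MOB1A, TAOK3, WTIP, VGLL4, NF2, DOCK5, ARHGEF17, FOXF2, CRB3 and VGLL1 were named outside this rule, after their values were seen, and the marker genes come from the marker lists. The lower bound of 0.05 FPKM for genes under the filter was also chosen after seeing the data. Alternatives were another pseudocount (0.1), no filter, a mean of at least 5 FPKM, trimmed-mean scaling, quantile normalization, a replicate block, no intensity trend, voom on recovered reads, the authors' values, removal of the local median within 5 Mb, and leaving out each library. Removal of a length and GC trend, alone or with the local median, was added after seeing the data, as were counts over genes with both group means at the filter. In reads simulated for the same genes and depths, with a variation set at 2.5%, 97.4% of 193 genes changed 2-fold were recovered. There 14221 genes were tested, and 5.53% of calls were unchanged genes. In the data 59.1% of tested genes were called and most called members changed less than 2-fold, so these shares do not carry over.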

Additional observations from a re-analysis of the deposited data

How the results depend on the processing

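YAP1, WWTR1, TEAD1, TEAD2, CTGF, CYR61 and ANKRD1 kept their direction and their call under each alternative that tested them, 15 or 16 per gene, with the highest adjusted p at 0.0329 for WWTR1. For TEAD1 and ANKRD1 the filter of 5 FPKM is no support, since they reached it only through their ETS1 libraries, which leaves 15 alternatives each. Trimmed-mean scaling moved the median of all genes by -0.015. With a mean of at least 5 FPKM, 5562 of 8215 tested genes were called, 4 of the 5 members tested were higher (2 of 3 without TEAD1 and ANKRD1), and the lists had 7 higher (6 without TAOK1, admitted in the same way) and 5 lower, with fewer genes tested. Among the lists, 5 were lower with no filter, and 12 were higher with the local median and the length and GC trend removed. Members called lower fell to 0 with the length and GC trend removed. Leaving out 1 library gave 0 to 1 members lower, 8 to 17 list genes higher and 3 to 5 lower; a lone library was assumed to vary like the other group. AMOTL2 reversed with the local median removed (-0.12) and with the trend removed as well (-0.059). The cause was not tested.

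The deviations of same-numbered libraries had a correlation of -0.0456 across tested genes, which are not independent replicates. This value cannot show whether same-numbered libraries were handled together, which is not given in the sources used here. With the replicate block 7283 genes were called instead of 8451, the member calls did not change, and 4 list genes were lower. Low FPKM limits CTGF most, with 112 reads in its shallowest library.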
